A study of Mus musculus with 11 samples.

Results

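The comparison set mice given a free antisense oligonucleotide (ASO) against Malat1 beside mice given ATV:BACE1, a molecule that binds the transferrin receptor (TfR) and carries no ASO. It held 5 of the 11 single-nucleus RNA libraries of the series, chosen by their treatment label: Malat1 ASO replicates 1 and 5 and ATV:BACE1 replicates 1, 4 and 5. These libraries held 50607 of 110304 nuclei, 19526 from Malat1 ASO and 31081 from ATV:BACE1. All mice were labelled homozygous for a human TfR knock-in (hTfR KI HOM), the groups conjugated to ASO included, and received 4 weekly intravenous doses in sterile saline with tissue taken 72 h after the last. Doses were 2.5 mg/kg for the ASO and 57 mg/kg for ATV:BACE1 in the labels (the design text of the series is ambiguous and may give 60 mg/kg for the latter). The labels name the brain region as posterior, whereas the deposited metadata name cortex and the strain C57BL/6J without a knock-in. The mice of replicate 1 were females aged 2.33 months and those of replicate 5 males of that age. Replicate 4, males aged 2.57 months, is represented by ATV:BACE1 only, and a Malat1 ASO library of that number was not analysed here. ATV:BACE1 is not a vehicle, so the presence of the ASO and the absence of the TfR-binding molecule cannot be told apart in any difference between the groups.

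Malat1 is a long non-coding RNA that is retained in the nucleus, where it gathers at nuclear speckles, and it is among the most abundant transcripts of single-nucleus libraries. An ASO of the gapmer type pairs with its target RNA and lets RNase H1 cut it, a reaction that also takes place in the nucleus. Brain endothelial cells face the blood directly and form the blood-brain barrier, while the epithelium of the choroid plexus makes the cerebrospinal fluid and lies on fenestrated capillaries. In the GRCm38 annotation (GENCODE vM21) Malat1 is a lincRNA gene on chromosome 19 from 5795690 to 5802672 on the minus strand. Neat1, its neighbour and the scaffold RNA of paraspeckles, lies from 5824708 to 5845478 on that strand.

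The 5 libraries held 33957245 to 41735849 UMIs (unique molecular identifiers, single captured RNA molecules), with medians of 2737 to 3146 UMIs per nucleus. Called doublets made up 8.91% to 10.8% of nuclei in 4 of the libraries and 15.95% in ATV:BACE1 replicate 5. Any pair of the 5 libraries shared 17 to 57 nucleus barcodes, at most 0.551% of the smaller library. Cerebellar neuron markers summed to between 6.63 and 9.49 CPM (UMIs of a gene scaled to a library total of 1000000) in a library, and none of them was at 0 in both groups. In sums over all nuclei, fewer nuclei of a type and less RNA per nucleus cannot be told apart, so nuclei per class were counted too. Nuclei per class did not pass the test in any of 10 classes (edgeR). Microglia stood at a mean of 1.46% of nuclei in Malat1 ASO and 0.789% in ATV:BACE1, with an adjusted p of 0.624. Malat1 ASO replicate 1 (2.01%) stood above the other libraries, while Malat1 ASO replicate 5 (0.899%) lay among the controls (0.621% to 1.01%).

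In vascular endothelium, Malat1 fell to 62.5% of the control level. Its share of UMIs, in order of replicate number here and below, was 5.98%, 6.06% and 6.68% in the ATV:BACE1 libraries and 3.60% and 4.20% in the Malat1 ASO libraries. The groups did not overlap, and the highest ASO library lay well under the lowest control. Means were 6.24% ± 0.378 (SD, n = 3) and 3.90% ± 0.422 (SD, n = 2), from 292 and 204 nuclei. The within-batch log2 ratio was -0.73 in replicate 1 and -0.67 in replicate 5. With the replicate number as a block in edgeR the log2 change was -0.80 (SE 0.132, adjusted p = 0.00133 over 4449 genes), and it stayed called when any of the 11 libraries was left out (adjusted p up to 0.0130). Without the block the change was -0.72 and the adjusted p 0.334, and with only the 5 libraries of the 2 groups it was -0.75 with an adjusted p of 0.998. Over the library shares alone, the exact two-sided permutation p was 0.2, which 2 libraries against 3 cannot go below.

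The deposited vascular classes mix cell types, so their nuclei were also divided by marker UMIs into endothelial-only, endothelial and mural, and mural-only nuclei. The cut was 2 UMIs of a list, so the parts differ in depth as well as in markers. Median UMIs per nucleus in these libraries were 825.5 to 1000.5, 1662 to 2938 and 633 to 788 in that order. Depth and cell type cannot be told apart between the parts. The pericyte class itself carried 15824 to 19836 CPM of endothelial markers beside 4711 to 5748 CPM of pericyte markers. In endothelial-only nuclei Malat1 took 5.90%, 5.94% and 6.03% of UMIs in ATV:BACE1 and 3.46% and 3.99% in Malat1 ASO. The controls were close to each other (5.96% ± 0.0645, SD, n = 3), and the ASO libraries stood at 62.5% of their mean. The log2 change was -0.79 (SE 0.142, edgeR adjusted p = 0.00447), with -0.77 and -0.60 within replicates 1 and 5. The call was lost without ATV:BACE1 replicate 4 (log2 change -0.73, adjusted p = 0.110), without Malat1 ASO replicate 1 (-0.68, 0.141) and without nonTV:Malat1 replicate 4 (-0.79, 0.0524).

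Nuclei with mural RNA stood closer to the control or at its level. Where endothelial and mural markers occurred together, the shares were 7.58%, 7.48% and 8.01% in ATV:BACE1 and 5.74% and 6.10% in Malat1 ASO, or 77.0% of control. These libraries did not overlap either, but the log2 change of -0.44 (SE 0.118) did not pass the edgeR test (adjusted p = 0.361), whereas with no filter on low counts it did (-0.40, 0.000578). Called doublets were 13.8% of these nuclei in Malat1 ASO replicate 1 and 0% to 7.84% in the other 4 libraries, and with doublets left out the change was -0.47. The pericyte class, which holds most of the same nuclei, stood at 80.0% of control with a log2 change of -0.41 (SE 0.157, adjusted p = 0.740). In mural-only nuclei, which had under 2 UMIs of the endothelial marker list (230.6 to 348 CPM summed over a library), the shares were 10.4%, 10.4% and 9.31% in ATV:BACE1 and 10.6% and 10.7% in Malat1 ASO. Both ASO libraries there lay just above every control, at a log2 change of 0.15 (SE 0.213, adjusted p = 1.00). These rest on 77 and 94 nuclei. The smooth muscle class was too small to test and overlapped between the groups, at 10.4%, 9.39% and 8.89% against 10.3% and 9.59%.

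**Figure D1:**
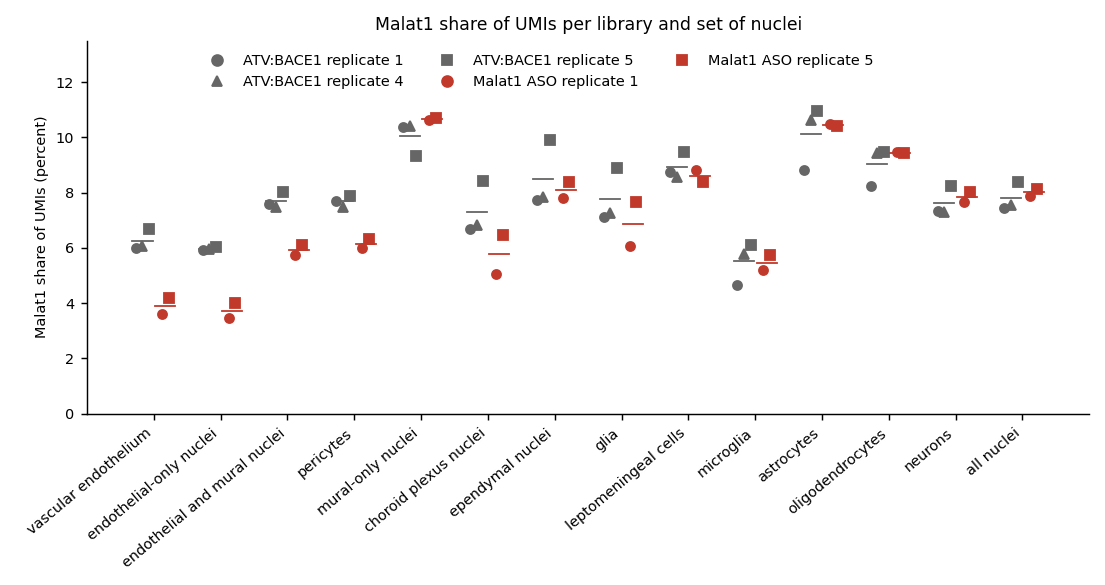
Share of UMIs on Malat1 (percent, y axis) in each library, for 14 sets of nuclei (x axis). Grey symbols are ATV:BACE1 and red symbols Malat1 ASO, shapes mark the replicate number, and short lines are group means. In vascular endothelium the ASO libraries sit at 3.60% and 4.20%, under the controls at 5.98% to 6.68%, whereas in all nuclei 7.87% and 8.15% lie among the controls.

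In choroid plexus nuclei Malat1 was lower in Malat1 ASO at 79.0% of control, without passing the test. These nuclei come from the class deposited as glia and were picked where choroid plexus markers without Ttr outnumbered ependymal ones. They carried 18184 to 26373 CPM of the choroid plexus list, with none of its 12 genes at 0 in both groups. That sum takes every gene of the list. The same list picked the nuclei, so the sum follows from the choice and is not separate evidence of their type. The shares were 6.68%, 6.82% and 8.41% in ATV:BACE1 and 5.05% and 6.48% in Malat1 ASO. Every ASO library lay under every control, and in both groups replicate 5 was the highest, so ASO replicate 5 came close to ATV:BACE1 replicate 1. Within batches the log2 ratios were alike, at -0.40 in replicate 1 and -0.38 in replicate 5. The blocked log2 change was -0.44 (SE 0.153) and the edgeR adjusted p 0.326 over 7066 genes, from 135 and 261 nuclei. It passed with no filter on low counts (-0.46, adjusted p = 0.00660) and without OTV:Malat1 replicate 1 (-0.43, 0.0445). Called doublets made up 38.5%, 10.8% and 21.5% of these nuclei in ATV:BACE1 and 17.2% and 4.17% in Malat1 ASO, and with them left out the change was -0.46 (adjusted p = 0.152). Under a stricter rule, at least 3 choroid plexus UMIs and no ependymal UMI, 6 to 15 nuclei per library were left, too few to test, and the groups overlapped (6.05%, 8.86% and 9.09% against 5.17% and 8.63%).

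Ependymal nuclei, the other part of the glia class and the ciliated lining of the ventricles, overlapped between the groups. Their shares were 7.74%, 7.85% and 9.92% in ATV:BACE1 and 7.81% and 8.40% in Malat1 ASO. The within-batch log2 ratios were 0.01 and -0.24 and the blocked change -0.11 (SE 0.164, edgeR adjusted p = 0.989). Leptomeningeal cells stood at 96.4%, microglia at 98.9%, astrocytes at 103%, oligodendrocytes at 105% and neurons at 103% of control. None of these 5 classes passed the test, the groups overlapped in each, and the log2 changes lay between -0.09 and 0.09 with SEs of 0.101 to 0.178. In astrocytes the within-batch ratios pointed apart, 0.25 and -0.07. ATV:BACE1 replicate 1 was at 8.80% there, against 10.6% and 10.96% in the other controls, and Malat1 ASO at 10.5% and 10.4%. Replicate 1 was also the lowest library of nonTV:Malat1, at 9.64%. Signs differed too in oligodendrocytes (0.20 and -0.0051), microglia (0.15 and -0.091), neurons (0.065 and -0.039) and leptomeningeal cells (0.010 and -0.17). What set them apart was not tested. In all nuclei together the change was 0.02 (SE 0.140, adjusted p = 0.986).

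Whether a set of nuclei changed more than the rest was tested on the difference itself, as Malat1 log2 CPM of a set less the mean of the other sets of that library (limma, replicate block). The sets of 1 library are not independent, and limma shared the spread over the 8 classes, so the p-values rest on 40 degrees of freedom where the 11 libraries alone leave 5. They are therefore too small, and the test was repeated with the own spread of each set and 5 degrees of freedom. Among the 8 deposited classes, vascular endothelium differed from the others by -0.67 (SE 0.0669, adjusted p = 1.29e-11 in limma, and SE 0.0717, adjusted p = 0.00185 with its own spread). Pericytes differed by -0.25 (limma adjusted p = 0.00142), a call that was lost with their own spread (0.0608). Because such differences sum to 0 over the classes, the remaining values are partly their mirror image. They were 0.25 in astrocytes and in oligodendrocytes, 0.19 in microglia and 0.18 in neurons, all called, while leptomeningeal cells (0.09, adjusted p = 0.188) and glia (-0.06, 0.410) were not. With their own spread those 4 classes stayed called (adjusted p up to 0.0307). Over 10 sets that do not overlap, endothelial-only nuclei differed by -0.65 (adjusted p = 7.89e-05), endothelial and mural nuclei by -0.29 (0.00290) and choroid plexus nuclei by -0.27 (SE 0.0723, 0.0127). With their own spread these were 0.00408, 0.00879 and 0.0382. Mural-only nuclei stood on the opposite side at 0.31 (0.0170, and 0.0737 with their own spread), and ependymal nuclei at 0.06 (0.455).

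**Figure D2:**
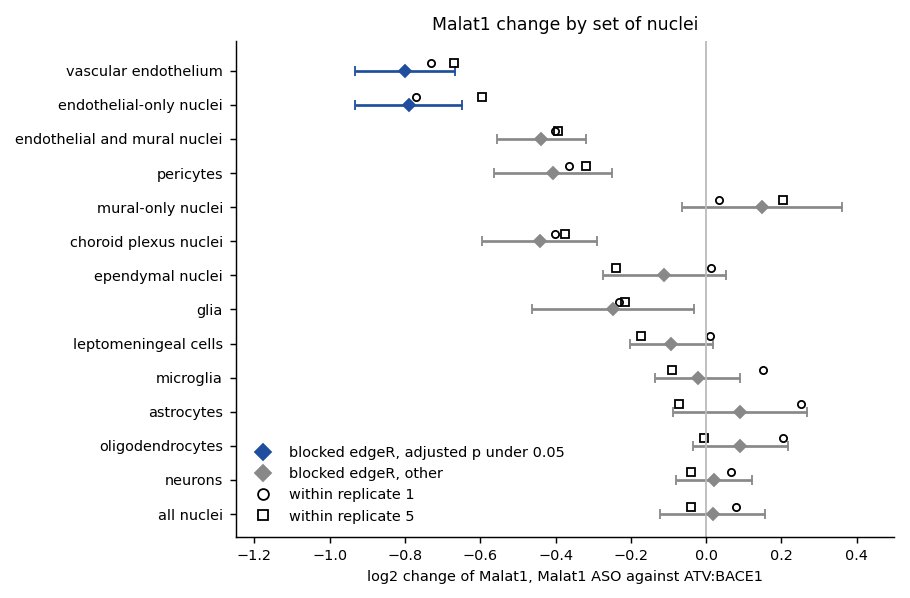
Log2 change of Malat1, Malat1 ASO against ATV:BACE1 (x axis), for 14 sets of nuclei (y axis). Diamonds are blocked edgeR changes with bars of 1 SE, blue where the adjusted p is under 0.05, and open symbols are log2 ratios of shares within replicates 1 and 5. Vascular endothelium (-0.80) and endothelial-only nuclei (-0.79) are the called sets, and choroid plexus nuclei (-0.44) have both within-batch ratios below 0.

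For reference, the other ASO groups of the study, which share these controls, had Malat1 shares in vascular endothelium of 4.72% ± 0.453 for nonTV:Malat1 and 1.83% ± 0.384 for OTV:Malat1 (SD, n = 3 each, both at 60 mg/kg). In both the ASO is carried by a protein, which binds TfR in OTV:Malat1 only. In choroid plexus nuclei they were 6.64% ± 0.911 and 4.95% ± 0.415. The means of Malat1 ASO, 3.90% ± 0.422 and 5.77% ± 1.01 (SD, n = 2, no replicate 4), lay between those means in both sets. Within replicate 1 of choroid plexus nuclei, however, Malat1 ASO (5.05%) and OTV:Malat1 (5.06%) were level, with nonTV:Malat1 at 6.04%. Within replicate 5, Malat1 ASO (6.48%) lay between OTV:Malat1 (5.31%) and nonTV:Malat1 (7.69%). Doses differ between the free and the conjugated oligonucleotide, so these values are given side by side only.

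In single endothelial nuclei, low Malat1 counts were more frequent in both Malat1 ASO libraries than in any control. Each nucleus was thinned to 1000 UMIs, and nuclei with fewer were left out, which removed 46.9% to 62.1% of vascular endothelium nuclei in a library. The median Malat1 count per 1000 UMIs was 57, 60.5 and 66 in ATV:BACE1 and 34 and 35 in Malat1 ASO. Nuclei at or under the 5th percentile of the controls made up 11.7%, 4.55% and 6.67% in ATV:BACE1 and 63.5% and 57.1% in Malat1 ASO, with means of 7.63% ± 3.66 and 60.3% ± 4.47 (SD). In endothelial-only nuclei the low share was 63.0% and 64.9% in Malat1 ASO against 4.76% to 9.26% in ATV:BACE1. Thinning to 500 UMIs left out no nucleus of this class, and the low shares were then 54.1% and 48.1% in Malat1 ASO against 10.4%, 8.62% and 3.67%. In endothelial-only nuclei they were 52.2% and 47.8% at that depth. Without thinning, the mean low shares of vascular endothelium were 55.5% and 5.62%. The exact two-sided permutation p was 0.2 in each of these comparisons, the lowest possible. Endothelial and mural nuclei had low shares of 40.2% and 38.1% against 6.25%, 6.38% and 7.69%.

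In choroid plexus nuclei, where only 0% to 4.62% of nuclei were left out, the low share was 41.9% and 33.3% in Malat1 ASO and 5.26%, 6.45% and 5.19% in ATV:BACE1. The medians were 42.5 and 49.5 against 60, 61.5 and 83 UMIs per 1000. Malat1 ASO replicate 5 was wide, from 26 at its 10th to 91 at its 90th percentile, so its highest nuclei were near those of the controls (90 to 116.4 at the 90th percentile). Without thinning the mean low shares were 42.2% and 5.37%. Ependymal nuclei of the same libraries had low shares of 9.09% and 6.25% against 11.3%, 5.41% and 0%, and means of 14.1% and 6.78% without thinning.

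**Figure D3:**
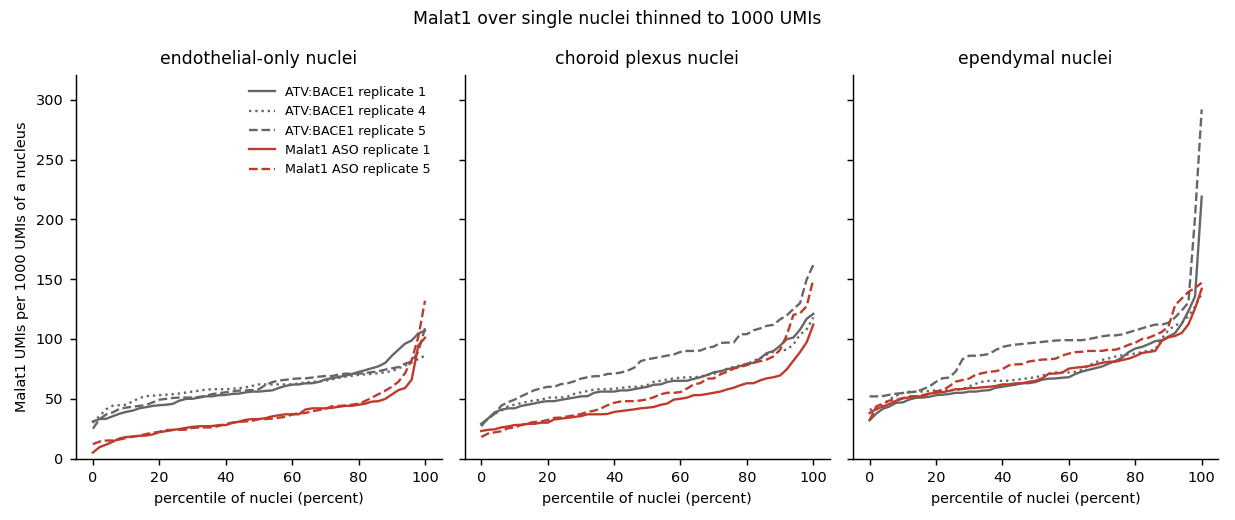
Malat1 UMIs per 1000 UMIs of a nucleus (y axis) at each percentile of the nuclei of a library (x axis), for endothelial-only, choroid plexus and ependymal nuclei. Grey lines are ATV:BACE1 and red lines Malat1 ASO, with solid, dotted and dashed lines for replicates 1, 4 and 5. Median counts in endothelial-only nuclei were 33 in both ASO libraries and 56 to 62 in the controls, and ependymal lines of the groups cross.

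Few genes were called, and the calls depended on the block. Over the 8 classes, 38 of 77917 gene tests passed an adjusted p of 0.05 with the replicate block, 26 higher and 12 lower, for 34 distinct genes. Counts here and below include Malat1 where it was called, and 37 of the 38 calls were of other genes. The number called was 12 in vascular endothelium (0.27% of the genes tested there), 11 in neurons (0.0531%), 6 in leptomeningeal cells (0.0919%), 5 in oligodendrocytes (0.0404%), and 1 each in pericytes (0.0162%), glia (0.00978%), microglia (0.0294%) and astrocytes (0.00712%). In all nuclei 4 of 21409 genes were called (0.0187%). Among the parts of classes, 6 genes were called in endothelial-only nuclei (0.172%), 2 in choroid plexus nuclei (0.0283%), 2 in endothelial and mural nuclei (0.0301%), 1 in ependymal nuclei (0.015%) and 1 in mural-only nuclei (0.11%). Without the block edgeR called 0 genes over the classes, where 2042 had an unadjusted p under 0.05, and DESeq2 called 1. DESeq2 with the block called 55, but 51 of these were in neurons and 4 in vascular endothelium, and it called 0 in each of the other 6 classes and in choroid plexus nuclei. Without ATV:BACE1 replicate 1 the blocked edgeR count was 8, without nonTV:Malat1 replicate 4 it was 24 and without OTV:Malat1 replicate 1 it was 62.

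In neurons 10 genes were called higher and 1 lower, and the lowest adjusted p was that of Gm47423, an antisense gene model (0.00258). Homer1, Pcsk1 and 1700016P03Rik are described first because neuronal activity is known to induce them, a choice made after their values were seen. Homer1, a scaffold protein of the postsynaptic density, stood at 326, 228 and 209 CPM in ATV:BACE1 and at 522 and 344 CPM in Malat1 ASO. The groups did not overlap, replicate 1 was the highest library of each, and the log2 change was 0.75 (SE 0.0842, edgeR adjusted p = 0.00714). Beside the same controls Homer1 stood at 448, 315 and 234 CPM in nonTV:Malat1 and at 484, 313 and 273 CPM in OTV:Malat1. Pcsk1, the prohormone convertase that processes neuropeptides, stood at 38.1, 23.3 and 28.8 against 57.3 and 45.6 CPM, a log2 change of 0.74 (adjusted p = 0.0202). 1700016P03Rik, the host transcript of miR-132 and miR-212 on chromosome 11 from 75172560 to 75177633, rose by a log2 change of 1.05 (SE 0.141), from 69.9, 22.6 and 44.8 to 128 and 84.4 CPM. Within replicates 1 and 5 its ratio was 0.87 and 0.92, so the change was alike in both batches although the levels differed. The mature products are printed because their host was called here. They were not measured, and they share their seed (bases 2 to 8, in capitals), from RefSeq entries on GRCm38.p6:
mmu-miR-132-3p: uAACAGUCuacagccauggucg
mmu-miR-212-3p: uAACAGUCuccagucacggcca

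The other genes higher in neurons were Gm47423 (log2 change 0.79), Arl5b (0.59), a small GTPase of the Arl family, Frmd6 (0.49), a FERM-domain protein, Sgsm1 (0.61), Gm10851 (0.86), the histone demethylase gene Kdm6b (0.64) and the clock gene Per1 (0.54). Gm47423 lies antisense within Ntrk2 and Gm10851 is also annotated as antisense. Whether the authors' counting used strand is not given in the sources used here, so reads of such genes and their partners cannot be told apart. Gm47423 was tight within groups, at 97.4, 70.4 and 86.9 CPM in ATV:BACE1 and 151 and 146 CPM in Malat1 ASO. Beside these controls it stood at 120, 116 and 111 CPM in nonTV:Malat1 and at 124, 111 and 131 CPM in OTV:Malat1. Per1 stood at 29.5, 19.6 and 20.6 against 38.2 and 30.1 CPM, so Malat1 ASO replicate 5 lay barely above ATV:BACE1 replicate 1. Kdm6b overlapped between the groups, at 20.2, 17.4 and 14.5 against 34.4 and 19.0 CPM, and Malat1 ASO replicate 1 was the highest library. Within replicates 1 and 5 its log2 ratio was 0.77 and 0.39. B230217C12Rik was the gene called lower (-0.64, edgeR adjusted p = 0.0151), although its libraries overlapped too, at 26.6, 17.5 and 36.1 against 15.7 and 22.7 CPM. Its within-batch ratios were -0.76 and -0.67. Homer1, Gm47423, 1700016P03Rik and B230217C12Rik were the 4 genes called in all nuclei. DESeq2 with the block also called these 11 neuronal genes, and without the replicate block edgeR called none of them (adjusted p of Homer1 1.00).

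Promoters of the called neuronal genes were read for the cAMP response element, the site through which CREB acts on activity-induced genes. Windows of 300 bases, from 250 before to 50 after the start site, were in the RefSeq table (GRCm38.p6) for 7 of the 11 genes. The core TGACGT, read on both strands (ACGTCA on the other), was present for 5 of these 7 (Arl5b, Homer1, Pcsk1, Per1 and Sgsm1) and in 8.37% of 27025 genes of the table. These 7 genes had 10 promoters, of which 5 held the core. Homer1, Per1 and Sgsm1 each had a further promoter without it. The 8.37% covers every gene of the table, whether or not it was tested in neurons. The palindrome TGACGTCA, which contains the core, was present for Arl5b and Pcsk1 and in 2.03% of genes. The motif was chosen with the gene names in view, and a match is a description of the letters, not a site. The 3 promoters with 3 matches of the core each, where a palindrome counts once on each strand, are printed 5′ to 3′ on the gene's strand with matches in capitals (3 stretches in Homer1, 2 in Pcsk1 and 2 in Arl5b), at chr13:93303507-93303806 for Homer1, chr13:75089607-75089906 for Pcsk1 and chr2:15055070-15055369 for Arl5b, all plus strand:
Homer1: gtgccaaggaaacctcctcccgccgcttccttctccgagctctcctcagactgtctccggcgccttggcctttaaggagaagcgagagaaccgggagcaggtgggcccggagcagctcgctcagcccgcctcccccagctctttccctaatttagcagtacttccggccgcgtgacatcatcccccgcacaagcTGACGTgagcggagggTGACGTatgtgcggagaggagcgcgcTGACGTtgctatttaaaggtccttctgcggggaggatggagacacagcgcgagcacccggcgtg
Pcsk1: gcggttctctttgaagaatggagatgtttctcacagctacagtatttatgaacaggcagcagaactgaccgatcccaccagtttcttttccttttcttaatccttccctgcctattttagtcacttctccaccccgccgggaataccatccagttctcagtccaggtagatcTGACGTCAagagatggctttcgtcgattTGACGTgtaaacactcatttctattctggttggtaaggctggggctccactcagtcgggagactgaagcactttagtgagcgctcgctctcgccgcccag
Arl5b: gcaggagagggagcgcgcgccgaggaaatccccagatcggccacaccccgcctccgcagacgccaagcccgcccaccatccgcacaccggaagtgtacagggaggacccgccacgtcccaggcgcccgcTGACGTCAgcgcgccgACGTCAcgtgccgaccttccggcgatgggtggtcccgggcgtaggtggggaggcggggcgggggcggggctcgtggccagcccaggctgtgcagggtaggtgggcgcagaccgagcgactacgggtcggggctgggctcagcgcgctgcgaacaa

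Members of the activity-related lists lay on both sides of 0 in neurons. Of 12 late activity-induced genes, Homer1 and Pcsk1 were called, and 4 were higher and 2 lower at an unadjusted p under 0.05, with a median log2 change of -0.07 beside 0.00 over all genes tested. At that level 4.89% of all genes were higher and 4.54% lower. Of 16 immediate-early genes, transcription factors and effectors induced within minutes of activity, 0 were called, 5 were higher and 5 lower, with a median of -0.37. Nr4a3 (log2 change 1.27, adjusted p = 0.0582) stood at 24.2, 8.10 and 13.6 against 38.4 and 35.8 CPM. Junb (-0.80, adjusted p = 0.214) stood at 79.5, 10.4 and 62.0 against 31.4 and 37.9 CPM, with ATV:BACE1 replicate 4 far under the other controls. Egr1 (-0.67) and Arc (-0.54) had the same low control library. Of 16 clock genes Per1 alone was called, and 3 were higher and 0 lower.

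**Figure D4:**
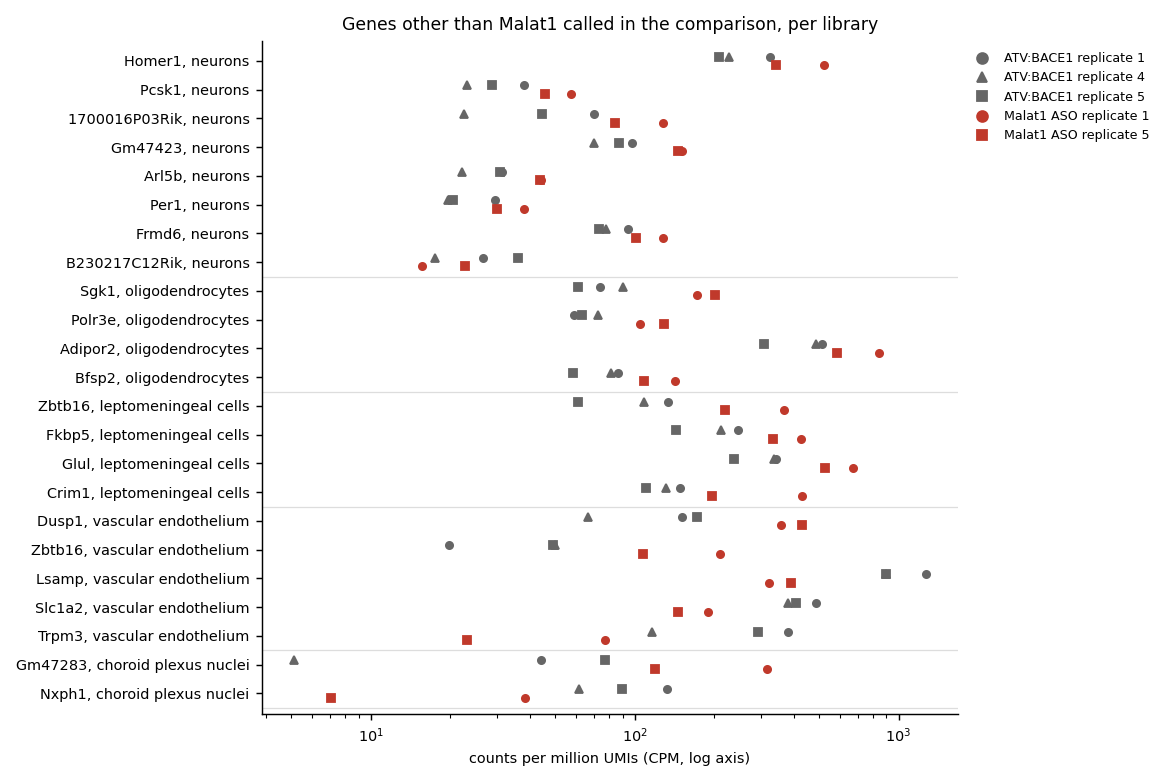
CPM (x axis, log scale) of 23 called results in 5 sets of nuclei (y axis), 1 point per library. Grey symbols are ATV:BACE1 and red symbols Malat1 ASO, and shapes mark the replicate number. The groups overlap in B230217C12Rik and are separate in the other genes plotted, such as Sgk1 in oligodendrocytes at 61.1 to 89.99 against 173 and 201 CPM.

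In oligodendrocytes Sgk1, a kinase gene that glucocorticoids induce, had the lowest adjusted p of the called results. It stood at 73.6, 89.99 and 61.1 CPM in ATV:BACE1 and at 173 and 201 CPM in Malat1 ASO, with no overlap and a log2 change of 1.49 (SE 0.206, adjusted p = 0.000227). The call held when any of the 11 libraries was left out (adjusted p up to 0.0344), but DESeq2 with the block gave an adjusted p of 0.80. Against the same controls Sgk1 stood at 97.8, 182 and 62.9 CPM in nonTV:Malat1 and at 160, 146 and 199 CPM in OTV:Malat1. Adipor2, an adiponectin receptor (log2 change 0.85), Polr3e, a subunit of RNA polymerase III (0.99), and Bfsp2, a beaded filament protein (0.79), also rose. Polr3e stood at 58.9, 72.4 and 63.0 against 104 and 129 CPM.

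Leptomeningeal cells, the fibroblasts of the meninges, had 6 genes called by edgeR, all higher, and DESeq2 with the block called 0 there (adjusted p of these genes 0.0523 to 1.00). Zbtb16, a glucocorticoid-induced zinc finger transcription factor, stood at 133, 109 and 60.8 CPM in ATV:BACE1 and at 368 and 221 CPM in Malat1 ASO, a log2 change of 1.65 (SE 0.261, adjusted p = 0.000763). It was also called in pericytes (2.23, from 21.4, 59.8 and 20.7 to 123 and 118 CPM) and in vascular endothelium (2.22, from 19.8, 49.9 and 49.1 to 211 and 108 CPM). Across 11 sets in which Zbtb16 was tested, its change was above 0 in 11. These sets share libraries and in part nuclei, so they are not separate results. Fkbp5, a co-chaperone of the glucocorticoid receptor, rose from 246, 212 and 144 to 426 and 333 CPM (log2 change 1.03, SE 0.2199, adjusted p = 0.0412). Glul, glutamine synthetase, rose by 0.95 from 344, 338 and 238 to 671 and 525 CPM. Crim1 (1.22), the lubricin gene Prg4 (1.42) and the peptidase gene Dpp4 (1.49) were high mostly in ASO replicate 1, at 429, 268 and 226 CPM, against 196, 73.6 and 78.5 CPM in replicate 5. Prg4 overlapped between the groups. In these nuclei, 8 pericyte markers summed to 528 to 584 CPM in ATV:BACE1 and to 341 and 476 CPM in Malat1 ASO, and 13 endothelial markers to 544 to 653 CPM and to 686 and 682 CPM, with none at 0 in both groups. Their part in these calls was not tested.

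Members of the list of 13 corticosteroid-responsive genes with an unadjusted p under 0.05 were mostly higher, and few were called. The list was chosen with earlier results of these data known, so its counts are a description. In oligodendrocytes 7 of 12 tested members were higher at an unadjusted p under 0.05 and 0 lower, with a median log2 change of 0.53, where 3.34% of all genes were higher and 2.92% lower. In leptomeningeal cells it was 6 of 10 (median 0.47, against 3.71% and 3.29%), in astrocytes 6 of 13 (0.19, against 3.31% and 3.59%), in neurons 5 of 13 (0.15, against 4.89% and 4.54%) and in all nuclei 7 of 13 (0.28, against 4.79% and 4.08%), with 0 lower in each of these 5 sets. In glia 3 of 9 were higher and 1 lower, where 242 of 10228 genes were higher and 339 lower. In pericytes 1 of 8 was higher, beside 197 of 6189 genes, and in microglia 1 of 5, beside 73 of 3400. It was 1 of 4 in choroid plexus nuclei, beside 201 of 7066, and 0 of 6 in ependymal nuclei, beside 132 of 6664. In each of these last 4 sets 0 members were lower. After adjustment over all genes, Sgk1 in oligodendrocytes and Zbtb16 and Fkbp5 in leptomeningeal cells were the members called in the first 5 sets. Zbtb16 was also called in pericytes and in vascular endothelium. In vascular endothelium 1 of 8 tested members was higher at the unadjusted level and the median was 0.60. Tsc22d3, which encodes the glucocorticoid-induced leucine zipper, stood in astrocytes at 70.7, 49.3 and 63.6 against 102 and 128 CPM (log2 change 0.84, adjusted p = 0.127). Fkbp5 in neurons stood at 36.5, 32.6 and 32.2 against 44.8 and 52.0 CPM (0.55, adjusted p = 0.0522). The receptors themselves, Nr3c1 (0.01) and Nr3c2 (0.06), had adjusted p-values of 0.975 and 0.907 in all nuclei.

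**Figure D5:**
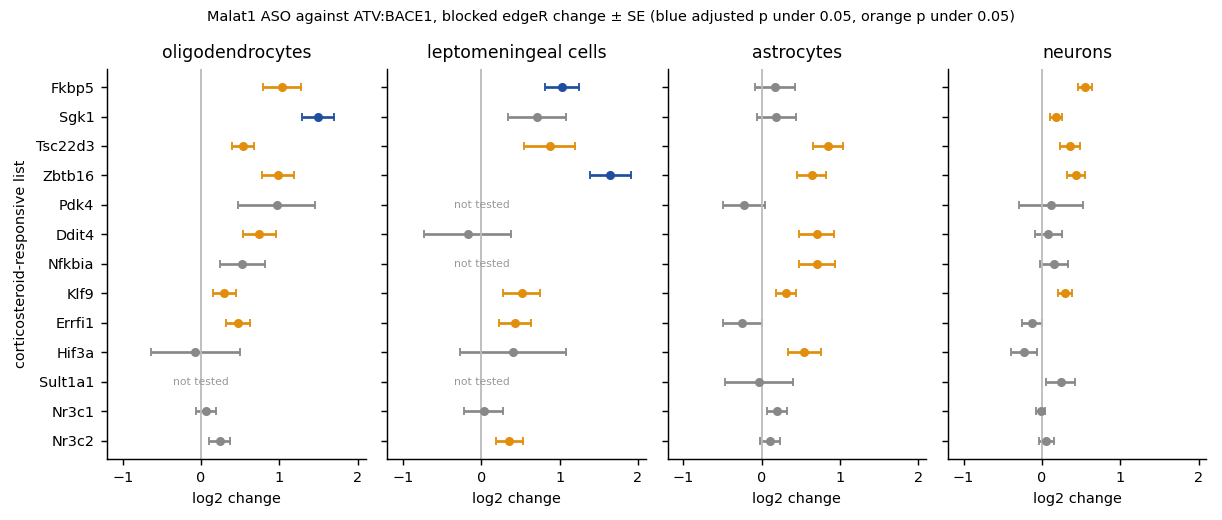
Blocked edgeR log2 change, Malat1 ASO against ATV:BACE1 (x axis), with bars of 1 SE, for 13 corticosteroid-responsive genes (y axis) in 4 classes. Blue points have an adjusted p under 0.05, orange points an unadjusted p under 0.05 only, and grey points neither. Most tested members lie to the right of 0 in oligodendrocytes (11 of 12) and leptomeningeal cells (9 of 10).

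In vascular endothelium, 2 genes other than Malat1 rose and 9 fell. Dusp1, a phosphatase that switches off MAP kinases, rose from 151, 66.6 and 172 CPM in ATV:BACE1 to 359 and 431 CPM in Malat1 ASO (log2 change 1.42, SE 0.315, adjusted p = 0.0278), and Zbtb16 is given above. DESeq2 with the block called 4 genes in this class against 12 for edgeR, namely Malat1, Trpm3, Lsamp and Hbb-bs, so the other 8 rest on edgeR. Trpm3, a cation channel gene, fell from 382, 117 and 295 to 77.3 and 23.1 CPM (-2.73, SE 0.422, adjusted p = 0.000718), which is 14 UMIs in the ASO libraries together. It remained called with any of the 11 libraries left out and in DESeq2 with the block (adjusted p = 0.0162). Its levels in nonTV:Malat1 were 152, 41.3 and 107 CPM and in OTV:Malat1 84.8, 65.7 and 210 CPM, beside the same controls. Lsamp, a neural cell adhesion molecule, fell by 1.66 on the log2 scale, from 1271, 899 and 900 to 323 and 393 CPM. Trpm3 stood at a mean of 17849 CPM in the choroid plexus nuclei, 3603 CPM in the astrocytes and 612 CPM in the neurons of these libraries, and Lsamp at 2364, 11100 and 4837 CPM.

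Among the genes that fell were several known from astrocytes. Slc1a2, the glial glutamate transporter, fell from 487, 383 and 409 to 190 and 146 CPM (log2 change -1.37, adjusted p = 0.0235), and Npas3 (-3.13), Gpc5 (-2.48), Luzp2 (-2.11) and Wdr17 (-1.94) fell with 7 to 19 UMIs in the ASO libraries together. Gm20713, within the Gpc5 gene on the opposite strand, had 1 UMI against 35. The sum of 6 astrocyte markers in vascular endothelium was 790, 483 and 597 CPM in ATV:BACE1 and 330 and 239 CPM in Malat1 ASO, none at 0 in both groups, and Slc1a2 is one of them. Slc1a2, itself called and at the values given above, made up much of this sum, so the sum is not separate from that call. In the same nuclei 7 neuron markers summed to 803, 782 and 737 against 443 and 1086 CPM, with overlap. Choroid plexus markers, 1 of 12 at 0 in both groups, summed to 1132 to 2199 CPM in the controls and 1244 and 1579 CPM in Malat1 ASO. The part of RNA from other cells in these calls was not tested. Hbb-bs, a haemoglobin gene, had 175 UMIs in ATV:BACE1 replicate 1 and 0 in the other 4 libraries, so its call rests on that library.

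Of the gene lists in vascular endothelium, few members passed an unadjusted p under 0.05, where 2.76% of all genes were higher and 2.61% lower. Of 17 tested blood-brain barrier genes, 3 were higher, 0 lower and 0 called. They were the glucose transporter gene Slc2a1 (0.56; 988, 1098 and 1072 against 1842 and 1371 CPM), the efflux pump gene Abcg2 (0.52) and the insulin receptor gene Insr (0.53), of which Abcg2 and Insr overlapped between the groups. Tfrc, the mouse transferrin receptor gene, stood at 237, 433 and 270.1 against 189.8 and 169 CPM, a log2 change of -0.64 (SE 0.305, adjusted p = 0.873). In endothelial-only nuclei it was -0.83 (adjusted p = 0.753), at 238, 413 and 301 against 148 and 186 CPM. The groups did not overlap in either set, and ATV:BACE1 replicate 4 was the highest. Of 5 tested immediate-early genes 2 were higher, Btg2 (0.91, adjusted p = 0.275) and Jun (0.64, 0.869). Of 7 tested nucleic acid sensing and interferon genes, 0 were higher and 0 lower, and Isg15 stood at 230.5, 83.2 and 221 against 225 and 116 CPM.

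In choroid plexus nuclei the called genes were Gm47283 and Nxph1. Gm47283, a gene model on the Y chromosome from 90784738 to 90816464, stood at 44.3, 5.12 and 77.6 CPM in ATV:BACE1 and at 317 and 120.0 CPM in Malat1 ASO. The highest library was Malat1 ASO replicate 1, a female per its label, and the within-batch log2 ratios were 2.84 and 0.63. The gene was called in glia, ependymal nuclei, astrocytes and oligodendrocytes too and was higher in each of 13 sets tested, and in choroid plexus nuclei the call was lost without ATV:BACE1 replicate 1 and without Malat1 ASO replicate 1 (adjusted p up to 0.560). The 13 sets share libraries and in part nuclei, so they are not separate results. A Y-linked gene model with reads in female libraries may share them with a copy elsewhere, so its values are uncertain. Nxph1, a neurexophilin of neurons, fell from 133, 61.4 and 89.8 to 38.4 and 7.06 CPM (-2.12, adjusted p = 0.0337), or 91 UMIs against 13.

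Neat1 was higher in choroid plexus nuclei without passing over all genes. It stood at 401, 373 and 433 CPM in ATV:BACE1 and at 855 and 685 CPM in Malat1 ASO, a log2 change of 0.85 (SE 0.201, adjusted p = 0.0797), and the groups were well apart. In vascular endothelium it was -0.21 (SE 0.285), in ependymal nuclei -0.01 and in all nuclei 0.10 (SE 0.0621), with overlapping libraries. Neat1 belongs to the list of genes near Malat1. In leptomeningeal cells 2 of 2 tested members of that list were above 0 (median 0.43). There 1 was higher at an unadjusted p under 0.05 (edgeR), where 3.71% of all genes were. Of 8 tested abundant nuclear long non-coding RNAs in choroid plexus nuclei, 1 (Neat1) was higher and 4 were lower at an unadjusted p under 0.05, where 2.84% of all genes were higher and 4.34% lower. Meg3, an imprinted RNA abundant in neurons, stood at 2039, 1304 and 2388 against 1181 and 1186 CPM (-0.86, adjusted p = 0.0797), without overlap. Snhg11 stood at 1410, 706 and 1335 against 816 and 692 CPM (-0.73), with overlap. Markers of neurons summed to 1436, 1089.5 and 1710.3 CPM in these control nuclei and 1207 and 1051 CPM in Malat1 ASO, and their part in the lower values was not tested.

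Secretion and transport genes of the choroid plexus had 3 of 14 tested members higher at that level, 0 lower and 0 called, with a median of 0.08. Slc12a2, the sodium-potassium-chloride cotransporter NKCC1, stood at 273, 343 and 359 against 477 and 501 CPM (0.60, SE 0.213, adjusted p = 0.354). Clic6 stood at 408, 348 and 351 against 589 and 452 CPM (0.49). Slco1c1, a thyroid hormone transporter of the barrier list, stood at 368, 404 and 302 against 573 and 459 CPM (0.60, adjusted p = 0.379). Klf9, of the corticosteroid list, stood at 124, 123 and 151 against 211 and 254 CPM (0.73, adjusted p = 0.271). In each of these 4 genes the ASO libraries lay above the controls, but the genes were named for the size of their change. Full separation of 2 from 3 libraries has an exact two-sided permutation p of 0.2.

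The remaining calls were in microglia and in vascular nuclei with mural RNA. Asic2, an acid-sensing channel gene, was lower in microglia (-2.90), at 78.1, 782 and 373 against 18.8 and 61.5 CPM, and lost its call without ATV:BACE1 replicate 4 (adjusted p = 0.132). Nkain2 was lower in mural-only nuclei (-1.83, 70 UMIs against 20). Tmeff2 (1.89) and Pex5l (1.62) were higher in endothelial and mural nuclei, Tmeff2 at 54.0, 143 and 37.4 against 233 and 270 CPM and Pex5l at 70.6, 111 and 46.8 against 167 and 202 CPM. That is 39 UMIs against 134 for Tmeff2 and 41 against 98 for Pex5l. The sum of oligodendrocyte markers in those nuclei was 468 to 785 CPM in ATV:BACE1 and 716 and 949 CPM in Malat1 ASO, and its part was not tested.

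In all nuclei the lists tied to the dosed molecules had 0 called members. Bace1, which encodes the beta-secretase named in the control molecule, stood at 39.3, 33.6 and 36.5 against 41.2 and 41.5 CPM (log2 change 0.17, SE 0.0686, adjusted p = 0.490), so the groups differed slightly without overlap. Tfrc stood at 37.6, 28.0 and 39.0 against 31.3 and 37.8 CPM. Rnaseh1, the enzyme that gapmer ASOs rely on, stood at 12.1, 9.48 and 12.1 against 10.5 and 10.6 CPM. At an unadjusted p under 0.05, 4.79% of all genes tested in all nuclei were higher and 4.08% lower. Of 18 tested nucleic acid sensing and interferon genes 1 was higher and 0 lower at that level, of 12 receptors for oligonucleotide uptake 1 and 1, and of 13 nuclear speckle and paraspeckle proteins 1 and 0. Of 14 amyloid precursor processing genes, the list that holds Bace1, 2 were higher and 1 lower, and of 12 transferrin receptor and iron genes 1 and 0.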

How the data were processed

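Per the file headers, the deposited matrix gives unnormalized UMI counts, as whole numbers, of 25938 genes in 110304 nuclei. Its column sums equalled the deposited total in 110304 nuclei. Per the file headers, each nucleus has a mitochondrial percent, a batch, a class with its prediction score (a fraction), and a doublet call, all made by the authors. Cell Ranger 5.0.0, Seurat 4 and the build mm10 are named per the submitters' processing notes. The sources used here do not say how they were set, nor which annotation and nucleus filters were used. The lowest nucleus total was 499 UMIs.

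Counts were summed per library and class, or per part of a class. A marker list counted as present from 2 UMIs, and a set needed 20 nuclei in at least 2 libraries of each group. Choroid plexus and ependymal nuclei were assigned to the list with more UMIs. Sums were tested with edgeR 4.0.16 in R 4.3.3 (glmQLFit, glmQLFTest, TMM, filterByExpr), over all 11 libraries of 4 groups, with replicate number as block. Benjamini-Hochberg adjustment ran over all genes tested in a fit, with 0.05 as threshold. The other groups thereby share the spread and the batch terms. A standard error is the absolute log2 change over the square root of F. CPM are UMIs of a gene per 1000000 UMIs of the set. Sets were compared with limma 3.58.1 on log2 CPM (prior count 2), and again with the own spread of each set. Tables and plots used Python 3.11.15 with pandas 2.3.3, numpy 2.4.6, matplotlib 3.10.9 and scipy 1.17.1. The edgeR fits were also run on simulated counts. These were drawn with the spread that edgeR had estimated and with no replicate effect, so they cannot test the block.

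Each of the replicate numbers 1, 4 and 5 goes with 1 deposited batch, 1 sex and 1 age, and the effects of these cannot be told apart. Replicates 4 and 5 share their sex, and replicates 1 and 5 share their age. Pairing comes from the batch column. Same-numbered libraries correlated at 0.611 to 0.873 (median 0.770, 15 pairs, 12604 genes), others at -0.819 to 0.457 (30 pairs), after centring within groups. Each library is labelled as its own mouse sample, and p-values measure the spread between these samples.

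The members, the gene lists and the motif were chosen with earlier results of these data known. Genes named are Malat1, those called in any set, and, per list, called members and up to 4 with the largest change at 20 CPM or more in all nuclei, vascular endothelium and choroid plexus nuclei. Other members given per class, and Tfrc and Neat1 in further sets, were chosen after their values were seen. Of the list symbols, 3 were not found in the matrix and not used here (Sele, Sting1, Mx1). Alternatives were no replicate block, DESeq2 1.42.0 with and without the block, no TMM, no filter, 2 groups only, Malat1 left out of library size, each library left out, doublets, nuclei under 1000 UMIs or scores under 0.5 left out, and thinning to 500 UMIs or none.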

Additional observations from a re-analysis of the deposited data

Results flagged for a closer look

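Several sets of nuclei differed from the others in their Malat1 change, by a test of the difference itself (limma, replicate block, log2 scale). Among the 8 deposited classes the difference was -0.67 in vascular endothelium, -0.25 in pericytes, 0.19 in microglia, 0.25 in astrocytes, 0.25 in oligodendrocytes and 0.18 in neurons. Over 10 sets that do not overlap it was -0.65 in endothelial-only nuclei, -0.29 in endothelial and mural nuclei, 0.31 in mural-only nuclei and -0.27 in choroid plexus nuclei. With the own spread of each set in place of a shared one, pericytes (adjusted p = 0.0608) and mural-only nuclei (0.0737) were not called. Values above 0 follow in part from the subtraction, since the differences sum to 0 over the sets. The share of low nuclei among the thinned nuclei was not part of these tests.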

How the results depend on the processing

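Depth and the number of libraries set the limits: 2 ASO libraries, 58 to 125 nuclei of vascular endothelium per library, and only replicates 1 and 5 in both groups. Malat1 in vascular endothelium kept its direction under 21 alternatives and its call under 18. It was -0.72 with no replicate block (adjusted p = 0.334), -0.72 in DESeq2 with no replicate block and -0.75 with 2 groups only, and ranged from -0.88 to -0.74 with a library left out. Endothelial-only nuclei lost the call at -0.73 with no replicate block, -0.72 in DESeq2 with no replicate block, -0.74 with 2 groups only and -0.79 without nuclei under 1000 UMIs, and ranged from -0.88 to -0.68 with a library left out. With no filter on low counts, choroid plexus nuclei (-0.46) and endothelial and mural nuclei (-0.40) became called, and choroid plexus ranged from -0.50 to -0.41 with a library left out. Pericytes stayed uncalled under all 21, from -0.50 to -0.34 with a library left out.

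Changes near 0 altered sign. Without TMM all nuclei gave -0.0073 and neurons -0.012. Microglia gave 0.072 with no filter, 0.011 with 2 groups only and 0.0098 without doublets, and ependymal nuclei 0.023 without doublets. With a library left out the ranges were -0.079 to 0.095 in all nuclei, -0.070 to 0.082 in neurons, -0.20 to 0.025 in leptomeningeal cells, -0.096 to 0.065 in microglia, -0.068 to 0.21 in astrocytes, -0.051 to 0.23 in oligodendrocytes and -0.20 to 0.018 in ependymal nuclei. Nuclei per class gave -0.0027 for leptomeningeal cells and -0.0073 for glia with no replicate block.

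The 4 genes called in all nuclei became 0 with no replicate block, 34 in DESeq2 with the replicate block, 2 in DESeq2 with no replicate block, 14 with no filter, 30 with 2 groups only, 10 without doublets and 0 to 12 with a library left out. The 38 over the classes became 0 with no replicate block, 1 in DESeq2 with no replicate block, 108 with no filter, 136 with 2 groups only and 8 to 62 with a library left out. Of 52 called results other than Malat1, over all sets, 43 lost the call without ATV:BACE1 replicate 1, 27 without its replicate 4, 22 without nonTV:Malat1 replicate 4, and 38 and 32 when the ASO library of replicate 1 or 5 was absent. In DESeq2 with the replicate block 32 lost the call and 20 kept it. Hbb-bs reversed without ATV:BACE1 replicate 1, where both groups had 0 UMIs and the value has no meaning (range -14.4 to 0.51 for Hbb-bs in vascular endothelium and -14.2 to 0.46 for Hbb-bs in endothelial-only nuclei).

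Differences from other sets lost their call with no replicate block in microglia (0.14 over 8 classes, 0.13 over 10 sets) and mural-only nuclei (0.24). With the replicate block and the own spread of each set (5 degrees of freedom) the differences keep their size, and pericytes (-0.25) and, over 10 sets, mural-only nuclei (0.31) and oligodendrocytes (0.23) lost their call. The excess of low nuclei in percentage points, at 500 UMIs, was 43.5 in vascular endothelium, 24.4 in pericytes, 43.4 in endothelial-only and 24.6 in endothelial and mural nuclei. With no thinning it was 53.6 in endothelial-only and 35.4 in endothelial and mural nuclei. The cause of these shifts was not tested. DESeq2 with no replicate block, the 10 sets and the own spread of each set were added after the data had been seen. The stricter choroid plexus rule left under 20 nuclei in each library and gave no fit.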
